A study of Rattus norvegicus with 7 samples.

Results

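The 9 genes described here are the Bag cochaperones Bag1 to Bag6, the heat shock transcription factors Hsf1 and Hsf2, and the polyubiquitin gene Ubb. They were taken by gene symbol from the 17147 symbols of the deposited tables, and all 9 were measured and passed the filter on low values. The cells were rMSCs, primary mesenchymal stem cells from the bone marrow of 1 male Sprague-Dawley rat aged 6 weeks, collected 4 h after seeding. They had been placed on film of ISB-P (the polycaprolactone-based polyurethane made with propoxylated isosorbide), on film of plain PCL (polycaprolactone) or on TCP (tissue culture plate). There were 3 libraries of ISB-P, 3 of PCL and 1 of TCP, from 20000 seeded cells each, and both films were 16 mm wide and sterilized by EO gas. With cells from 1 rat, and nothing in the labels about separate cultures, p-values measure only the spread between these libraries, which may be technical. Levels are FPKM, fragments scaled for transcript length and library total, and a fold change is on the log2(FPKM + 1) scale unless a ratio is named. Of 10 mesenchymal markers, 9 were at 1 FPKM or more in every library and Col1a2 was listed at 0 in all of them. Of 6 muscle markers, 4 were under 1 FPKM in every library, and their summed level was 1.82 to 2.66 FPKM on PCL, 2.32 to 2.75 on ISB-P and 6.39 on TCP. The sum of 7 blood cell markers was 22.7 to 25.9 FPKM on PCL, 18.1 to 21.4 on ISB-P and 56.6 on TCP, that of 5 endothelial markers stayed under 1 FPKM, and that of 4 fat cell markers was 20.0 to 32.0 on PCL, 23.6 to 41.1 on ISB-P and 75.9 on TCP. The part of these cell types in the results below was not tested, and fewer cells of a type cannot be told apart from less RNA per cell.

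Most Bag proteins carry a domain that binds the ATPase part of Hsp70 and speeds the exchange of its nucleotide, which releases the bound client protein. What follows the release depends on the rest of the Bag protein, which can bring the client to the proteasome, to autophagy or to a signalling partner. The heat shock factors are the transcription factors of this system: Hsf1 is held in check by chaperones, is activated mainly on the protein level when proteins misfold, and then binds heat shock elements, alternating GAA and TTC units, before chaperone genes. Bag3 and Ubb are among the genes it is known to induce. Ubb encodes ubiquitin as a head-to-tail chain of copies that is cut into single molecules, and serves as the reserve that cells draw on under stress.

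Promoter sequence was available for 7 of the 9 genes in the RefSeq table of the GRCr8 assembly. Bag4 and Hsf1 had no entry in it. Each entry reads from 250 bases before to 50 bases after an annotated transcription start, and Bag6 and Ubb had more than 1 start. The paired forms of the element, GAANNTTC and TTCNNGAA, each of which reads the same on both strands, were searched in every entry. At least 1 of them was present in 15.9% of the 33469 promoters and in 11.6% of the 7566 promoters of tested genes. Among the members, Bag3 held the head-to-head form, GAANNTTC, once, and no other member held either form in these windows. The head-to-head form was in 8.59% and the tail-to-tail form in 8.77% of all promoters, so that single matches of this length are common. Below are the 250 bases before the start of Bag3, at chr1:192533210-192533459 on the + strand, with the match in capitals, and those before the more upstream start of Ubb, at chr10:47746673-47746922 on the + strand, where capitals would mark a match and there are none. They are shown because these are the 2 members best known as heat shock genes. The coordinates are of GRCr8, not of rn5, the build named in the submitters' processing notes.

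Bag3: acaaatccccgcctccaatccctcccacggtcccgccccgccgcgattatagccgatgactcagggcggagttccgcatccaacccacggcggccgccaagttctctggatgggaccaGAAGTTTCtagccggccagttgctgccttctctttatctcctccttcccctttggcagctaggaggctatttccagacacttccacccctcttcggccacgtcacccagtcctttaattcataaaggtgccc

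Ubb: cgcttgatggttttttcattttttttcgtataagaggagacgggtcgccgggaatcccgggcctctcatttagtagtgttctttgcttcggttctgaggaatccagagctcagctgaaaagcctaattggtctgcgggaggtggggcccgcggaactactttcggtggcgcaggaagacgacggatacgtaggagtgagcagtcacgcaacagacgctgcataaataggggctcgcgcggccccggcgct

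The match before Bag3, GAAGTTTC, begins 132 bases before the start. A run of 3 alternating units, each 2 bases from the next, were found in 0.798% of all promoters and in none of the members. For comparison, of 21 promoters of the Hsp70 and Hsp90 genes and cochaperones listed further on, 12 held at least 1 paired form and 3 held the 3-unit form, those of Chordc1, Dnaja1 and Hspa8. These are matches of letters and not measured binding.

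Between the films, Bag3 was the only member whose level differed past an adjusted p of 0.05, and it was higher on ISB-P. That is 1 of 9 members higher, where 1.10% of the 9467 tested genes were called higher, and 0 of 9 lower, where 0.623% were called lower (limma on log2(FPKM + 1), adjusted over all tested genes). An unadjusted p under 0.05 was reached by 2 of the 9 members, Bag3 and Bag4, and by 1145 of the 9467 tested genes. The labels do not say what film libraries of the same replicate number share. Once that number entered the fit as a block, 3 members were higher, Bag2, Bag3 and Ubb, and 1 was lower, Bag4. The block raised the share of all tested genes called to 13.0% higher and 11.4% lower. The 1 of 9 members lower is near that share, and the 3 of 9 higher are a larger share than 13.0%, a difference that was not tested. The log2 fold changes of the 9 members had a median of 0.18, beside 0.02 over all tested genes. They were above 0 in 6 of the 9, beside 5005 of the 9467 tested genes. Scaling all libraries to a common total moved the median of all genes to -0.09 and that of the members to 0.06. It also changed the calls over all genes from 104 higher and 59 lower to 70 and 70. With the block and a common total together, a pairing of settings chosen after seeing the data, 7.54% of tested genes were higher and 22.3% lower, beside 3 members higher and 2 lower, Bag4 and Bag6.

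**Figure D1:**
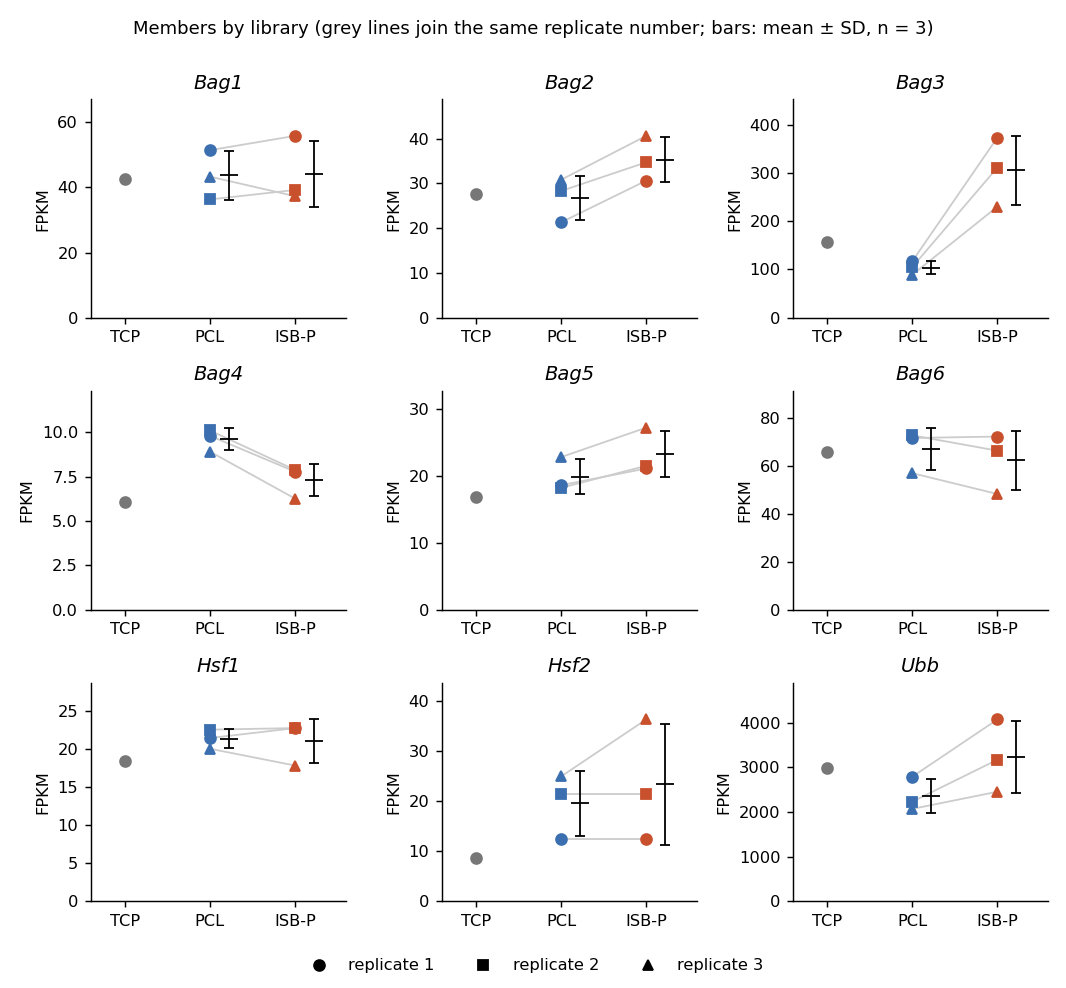
Level in FPKM (vertical axes, each from 0) of the 9 members on TCP, PCL and ISB-P, 1 point a library, with grey lines joining PCL and ISB-P libraries of the same replicate number and bars for the mean and SD of 3 libraries. Bag3 is higher in all 3 ISB-P libraries (230 to 373) than in all 3 PCL libraries (89.0 to 117), Bag4 is lower in all 3, and the libraries of the other 7 members overlap.

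Bag3 brings Hsp70 clients together with the small heat shock protein Hspb8 and leads them to autophagy, a route best known from muscle cells under mechanical load. Its level was 117 FPKM in PCL replicate 1, 105 in replicate 2 and 89.0 in replicate 3. The same replicates of ISB-P held 373, 311 and 230 FPKM. The single TCP library held 156 FPKM. All 3 ISB-P libraries lay above TCP and all 3 PCL libraries below it. On average the PCL libraries held 104 ± 14.0 FPKM and those of ISB-P 305 ± 71.5 (SD, n = 3 each), a ratio of 2.94. In limma the log2 fold change was 1.53 with a standard error of 0.21 (95% interval 1.04 to 2.02, adjusted p = 0.0213), above that of 99.7% of tested genes. The exact permutation test gave p = 0.1, two-sided, the smallest p that 3 libraries against 3 allow.

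The libraries of the films differed in level by replicate number while the ratio between films varied less. Within replicates 1, 2 and 3, Bag3 was 3.19, 2.97 and 2.59 times higher on ISB-P. With the replicate block its 95% interval narrowed to 1.36 to 1.70 (adjusted p = 5.56e-06). Without the block the call was sensitive to the libraries used: the adjusted p was 0.0688, 0.158 and 0.105 without PCL replicate 1, 2 or 3 and 0.149 without ISB-P replicate 2, and it was 0.0458 and 0.00819 without ISB-P replicate 1 or 3. Quantile normalization gave an adjusted p of 0.0734, while the log2 fold change in these settings ranged from 1.36 to 1.72.

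Bag4, also called the silencer of death domains because it binds the TNF receptor Tnfrsf1a, had the lowest level of the 9 genes and went the other way. Its level was 9.80, 10.1 and 8.91 FPKM in PCL replicates 1 to 3 and 7.78, 7.88 and 6.26 FPKM in those of ISB-P, with 6.07 FPKM on TCP. No ISB-P library reached the lowest PCL library. Averages were 9.62 ± 0.636 FPKM for PCL and 7.31 ± 0.908 for ISB-P (SD, n = 3 each). The log2 fold change was -0.36 (standard error 0.13, 95% interval -0.67 to -0.04), which did not pass adjustment over all tested genes (adjusted p = 0.329). With the replicate block it passed (adjusted p = 0.0155). Films that do not overlap were seen in 8.17% of tested genes with ISB-P higher, as for Bag3, and in 9.54% with ISB-P lower, as for Bag4. In the GRCr8 gene table Bag4 overlaps Lsm1 and a long noncoding gene, and whether the counting used strand is not stated, so reads of these genes could have been counted for each other.

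Bag2, which inhibits the ubiquitin ligase Stub1 that marks Hsp70 clients for the proteasome, was 21.3, 28.3 and 30.8 FPKM in PCL replicates 1 to 3. On ISB-P it was 30.6, 34.7 and 40.6 FPKM, and on TCP 27.6 FPKM. The films overlapped by 1 pair of libraries, since PCL replicate 3 lay just above ISB-P replicate 1, and within each replicate number ISB-P was higher, by 1.43, 1.23 and 1.32 times. The log2 fold change of 0.39 (standard error 0.18, 95% interval -0.04 to 0.83) had an adjusted p of 0.488, or 0.00744 with the replicate block.

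Bag5, which carries several Bag domains in 1 protein, was 18.6, 18.2 and 22.8 FPKM on PCL and 21.1, 21.5 and 27.2 FPKM on ISB-P in replicates 1 to 3, with 16.8 FPKM on TCP. It was higher on ISB-P within all 3 replicate numbers, by 1.13 to 1.19 times, and replicate 3 was the highest library of each film. Its log2 fold change of 0.22 did not pass without the block (95% interval -0.16 to 0.59, adjusted p = 0.751) or with it (adjusted p = 0.0616).

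Bag1, which has a ubiquitin-like domain that lets it dock Hsp70 at the proteasome, was 51.4, 36.3 and 43.3 FPKM on PCL and 55.8, 39.2 and 37.3 FPKM on ISB-P in replicates 1 to 3, and 42.6 FPKM on TCP. Its means on the films, 43.7 ± 7.53 and 44.1 ± 10.2 FPKM (SD, n = 3 each), were almost equal, and the 95% interval of its log2 fold change ran from -0.48 to 0.49, or from -0.19 to 0.20 with the replicate block. Its value of 0.00 became -0.11 with scaling to a common total.

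Bag6, which guards newly made membrane proteins and passes misplaced ones to the proteasome, was 71.7, 72.8 and 57.0 FPKM on PCL and 72.3, 66.4 and 48.3 FPKM on ISB-P in replicates 1 to 3, and 65.8 FPKM on TCP. Replicate 3 was the lowest library of each film. The log2 fold change was -0.12 (95% interval -0.58 to 0.34, adjusted p = 0.927), and the replicate block did not bring it past the threshold (adjusted p = 0.277), although with the block and a common total together it was -0.23 (adjusted p = 0.0466). Bag6 overlaps Prrc2a in the gene table, with the same uncertainty about strand as for Bag4.

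**Figure D2:**
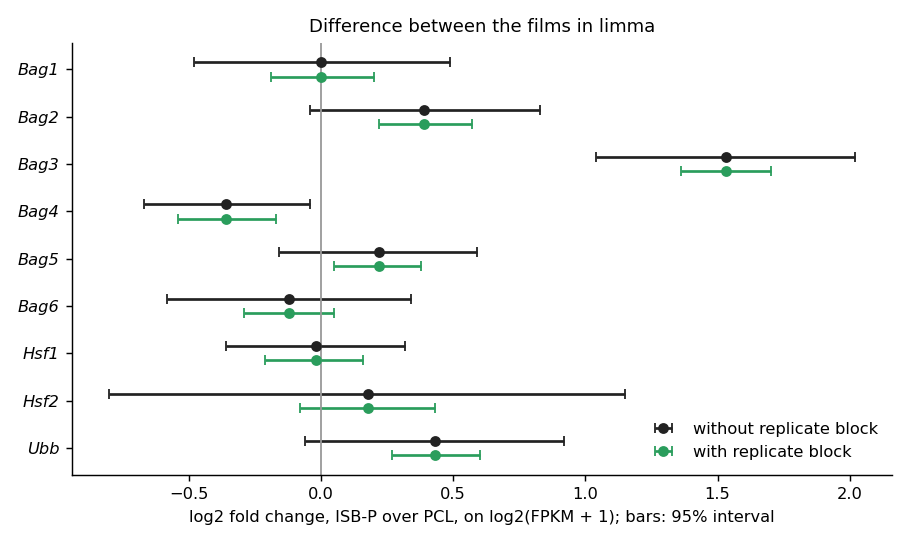
Log2 fold change of ISB-P over PCL on log2(FPKM + 1) (horizontal axis) for each member, with the 95% interval from limma without (black) and with (green) the replicate number as a block. Black intervals of Bag3 (1.04 to 2.02) and Bag4 (-0.67 to -0.04) exclude 0, and with the block those of Bag2, Bag5 and Ubb do too. The intervals are not adjusted for the number of genes. In limma with the block, 5 of the 9 members and 3626 of the 9467 tested genes had an unadjusted p under 0.05. Bag5 did not pass adjustment there (adjusted p = 0.0616).

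Because FPKM values are per length, the family members can be set against each other as levels. The 6 Bag genes summed to 290, 270 and 252 FPKM in PCL replicates 1 to 3, to 560, 481 and 390 FPKM in the ISB-P libraries, and to 315 FPKM on TCP. All ISB-P sums lay above all others. Bag3 made up 40.4%, 38.7% and 35.3% of the sum in the PCL libraries, 66.5%, 64.7% and 59.1% in the ISB-P libraries and 49.5% on TCP. Bag3 was thus the most abundant Bag transcript on every surface, and more abundant than the other 5 together in all ISB-P libraries but in none of the others. Bag6, the next, made up 24.8% ± 2.14 of the sum on PCL and 13.0% ± 0.723 on ISB-P (SD, n = 3) while its own level overlapped between the films. The other 5 Bag genes together differed by less between films than Bag3 alone did. These shares contain the change of Bag3 itself and were not tested.

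**Figure D3:**
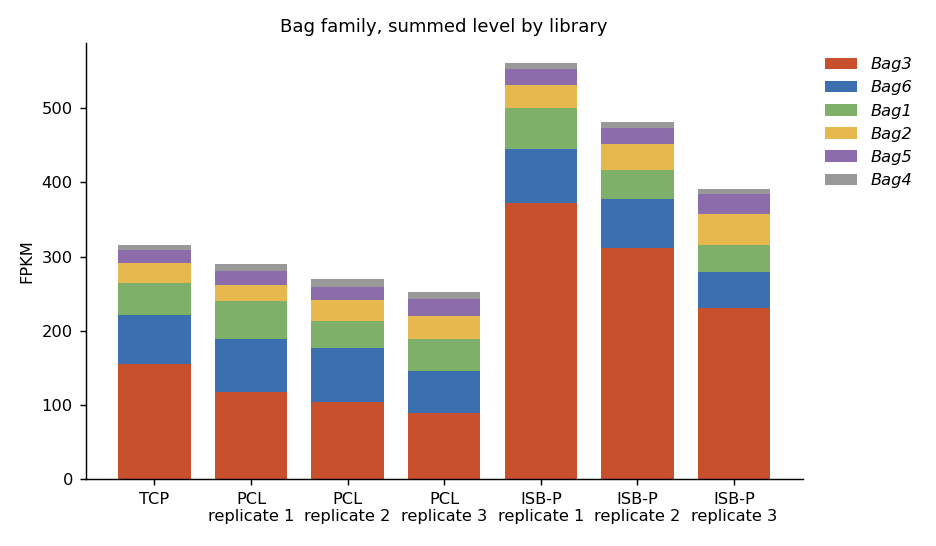
Summed level of the 6 Bag genes in FPKM (vertical axis from 0) in each of the 7 libraries, with each gene a coloured segment. The sum is 390 to 560 on ISB-P and 252 to 290 on PCL, and the Bag3 segment (lowest) is the one that differs most.

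Hsf1, the factor that drives the heat shock response, showed no difference in transcript level between the films beyond the spread. It was 21.4, 22.5 and 20.0 FPKM in PCL replicates 1 to 3, 22.7, 22.7 and 17.8 FPKM in those of ISB-P and 18.4 FPKM on TCP. The log2 fold change was -0.02 (95% interval -0.36 to 0.32, adjusted p = 0.975), and with the replicate block the interval was -0.21 to 0.16. Transcript levels say nothing of the activity of Hsf1, which is set on the protein.

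Hsf2, a related factor that can form mixed trimers with Hsf1, varied more between replicate numbers than between films. It was 12.4, 21.4 and 25.0 FPKM in PCL replicates 1 to 3 and 12.4, 21.4 and 36.4 FPKM in those of ISB-P, with 8.59 FPKM on TCP, the lowest of all 7 libraries. In replicates 1 and 2 the films were nearly equal, at ratios of 1.00 and 0.999, and in replicate 3 ISB-P was 1.45 times higher. The log2 fold change of 0.18 had the widest interval of the members (-0.80 to 1.15, adjusted p = 0.947, or 0.278 with the replicate block), and it was -0.19 without ISB-P replicate 3 and -0.11 without PCL replicate 1. The ratio of Hsf2 to Hsf1 was 0.466 on TCP, 0.578 to 1.25 in the PCL libraries and 0.548 to 2.05 in the ISB-P libraries. Hsf2 was above Hsf1 only in the replicate 3 libraries of both films.

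Ubb was by far the most abundant member, from 2072 to 4075 FPKM. In PCL replicates 1 to 3 it was 2793, 2233 and 2072 FPKM, in the ISB-P libraries 4075, 3174 and 2457 FPKM, and on TCP 2985 FPKM. ISB-P replicate 3 lay below PCL replicate 1, so the films overlapped, while within every replicate number ISB-P was higher, by 1.46, 1.42 and 1.19 times. Averages were 2366 ± 378 FPKM for PCL and 3235 ± 811 for ISB-P (SD, n = 3 each). The log2 fold change of 0.43 (standard error 0.21, 95% interval -0.06 to 0.92) had an adjusted p of 0.503, or 0.00375 with the replicate block.

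Rps27a, in which a single ubiquitin is fused to a ribosomal protein, was 1729, 1696 and 2170 FPKM in PCL replicates 1 to 3 and 1831, 1803 and 2731 FPKM in those of ISB-P, with 1515 FPKM on TCP. Replicate 3 was its highest library on each film, where Ubb had its lowest. Its log2 fold change was 0.17 (adjusted p = 0.898, or 0.110 with the replicate block). Ubiquitin copies are nearly alike in sequence from gene to gene, and the sources used here do not tell how reads matching several genes were assigned, which leaves these levels uncertain.

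In order of level, Ubb was followed on every surface by Bag3, Bag6, Bag1 and Bag2, and Bag4 was last. On PCL each of the first 4 was above the next in all libraries, while Bag2, Hsf1, Bag5 and Hsf2 overlapped from neighbour to neighbour (26.8, 21.3, 19.9 and 19.6 FPKM in the mean). On ISB-P the ranges of all neighbours from Bag6 to Hsf1 overlapped, and Ubb, Bag3 and Bag4 stood clear of theirs.

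Against the single TCP library no test can be made, and the ratio of the film mean plus 1 FPKM to the TCP value plus 1 FPKM is given. Hsf2 was past 2-fold on both films, at 2.54 on ISB-P and 2.15 on PCL, and no other member was past it in either direction. Of all tested genes 8.98% were past 2-fold higher and 4.28% lower for ISB-P, and 5.56% higher and 3.04% lower for PCL, and nothing is read from 1 of 9 beside these shares. Bag3 stood at 1.95 for ISB-P and 0.667 for PCL, and Ubb at 1.08 and 0.793. Both comparisons use the same TCP library. Leaving out ISB-P replicate 3 brought Hsf2 to 1.87 and Bag3 to 2.19 for ISB-P, and leaving out PCL replicate 3 brought Hsf2 to 1.87 for PCL.

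The partners of the members were listed by function, and each list was read beside the 1.10% of all tested genes called higher and the 0.623% called lower, or, for counts with the replicate block, the 13.0% and 11.4%. Of the 25 Hsp70 and Hsp90 genes and cochaperones that Bag proteins or Hsf1 bind, 11 were higher on ISB-P and 0 lower, with a median log2 fold change of 0.85. The study had picked several of them as changed in these same libraries, so the count is not independent evidence. The largest were Hspa1b (5.69, adjusted p = 8.79e-04) and Hspa1a (5.47, adjusted p = 0.00361), the inducible Hsp70 genes whose reads may be shared, and the Hsp40 cochaperones Dnaja1 (2.10, adjusted p = 0.0426) and Dnajb1 (1.86, adjusted p = 0.00150). With the replicate block, which called 13.0% of all tested genes higher, 18 of the 25 were higher and 0 lower.

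Hsp70 has other nucleotide exchange factors besides those of the Bag family. Of 7 tested, Hsph1, an Hsp110 protein, rose from 63.4 ± 11.8 to 336 ± 71.7 FPKM (SD, n = 3 each, log2 fold change 2.38, adjusted p = 0.00361), more than Bag3 on this scale. Its relative Hspa4 was 121 ± 26.3 FPKM on PCL and 202 ± 64.7 on ISB-P, with an adjusted p of 0.319, or 3.83e-04 with the replicate block. The exchange factors of other compartments, Grpel1 of mitochondria (log2 fold change -0.19, adjusted p = 0.813) and Hyou1 of the endoplasmic reticulum (-0.14, adjusted p = 0.884), were not past the threshold. Neither was Hspbp1, a factor of the cytosol (0.04, adjusted p = 0.978, or 0.810 with the block), so the list does not divide by compartment. The median of the list was -0.02.

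In the list of Bag3 and p62 autophagy, 1 of 15 genes was higher and 0 lower, with a median of 0.24. Hspb8 and Stub1 also stand on the list above. Hspb8, the small heat shock protein that works with Bag3, was 35.8, 37.2 and 35.5 FPKM in PCL replicates 1 to 3 and 63.8, 64.7 and 69.6 FPKM in those of ISB-P, a log2 fold change of 0.85 with a standard error of 0.11 (adjusted p = 0.0213). Sqstm1, which encodes the autophagy receptor p62, was 374, 347 and 334 FPKM on PCL and 618, 550 and 467 FPKM on ISB-P, without overlap (log2 fold change 0.62, adjusted p = 0.0970, or 5.13e-04 with the replicate block). Ywhag, a 14-3-3 protein, and Nbr1, another receptor, had log2 fold changes of 0.42 and 0.31 and passed only with the block, under which 7 of the 15 were higher and 0 lower, beside 13.0% and 11.4% of all tested genes.

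None of the other lists held a call without the block, and their counts with it, 2 genes in a direction in lists of 7 to 13, stand beside the 13.0% higher and 11.4% lower of all tested genes, so nothing is read from them about the lists. Among 13 regulators and relatives of heat shock factors the median was 0.01, and Plk1, a mitotic kinase, had a log2 fold change of -0.46 (adjusted p = 0.178), with Akap13 at 0.25 and Daxx at -0.15. With the block 2 of the 13 were higher, Akap13 and Hsf2bp (log2 fold change 0.51, adjusted p = 0.0766, or 0.00979 with the block), and 2 lower, Plk1 among them. The 9 genes of ubiquitin coding and recycling besides Ubb had a median of 0.12 and, with the block, 2 higher, the deubiquitinase Usp14 (log2 fold change 0.37, adjusted p = 0.0402 with the block) and Uchl1 (0.33, adjusted p = 0.0109 with the block). The 9 genes of Bag6 and tail-anchored protein insertion had a median of -0.11. Of these 9, 1 was above 0, beside 8 of the 9 in the ubiquitin list and 5005 of the 9467 tested genes. Scaling to a common total left 3184 of the tested genes above 0, and nothing is read from these counts. With the block 2 genes of the Bag6 list were lower, Wrb and Sgtb. Wrb had a log2 fold change of -0.68 (adjusted p = 0.127, or 6.94e-04 with the block). Sgtb had -0.41 (adjusted p = 0.572, or 0.0381 with the block). Get4, Sgta, Rnf126 and Asna1 of this list had log2 fold changes from -0.14 to -0.03. Of 7 signalling partners of Bag1 and Bag4, with a median of 0.17, 2 were higher with the block, Siah1a (log2 fold change 0.32, adjusted p = 0.0218 with the block) and the glucocorticoid receptor gene Nr3c1 (0.52, adjusted p = 0.00512 with the block), while the Bag4 partner Tnfrsf1a was at 124 ± 13.2 FPKM on PCL and 128 ± 26.2 on ISB-P (log2 fold change 0.03). Psma1 (0.17) did not pass in either fit.

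**Figure D4:**
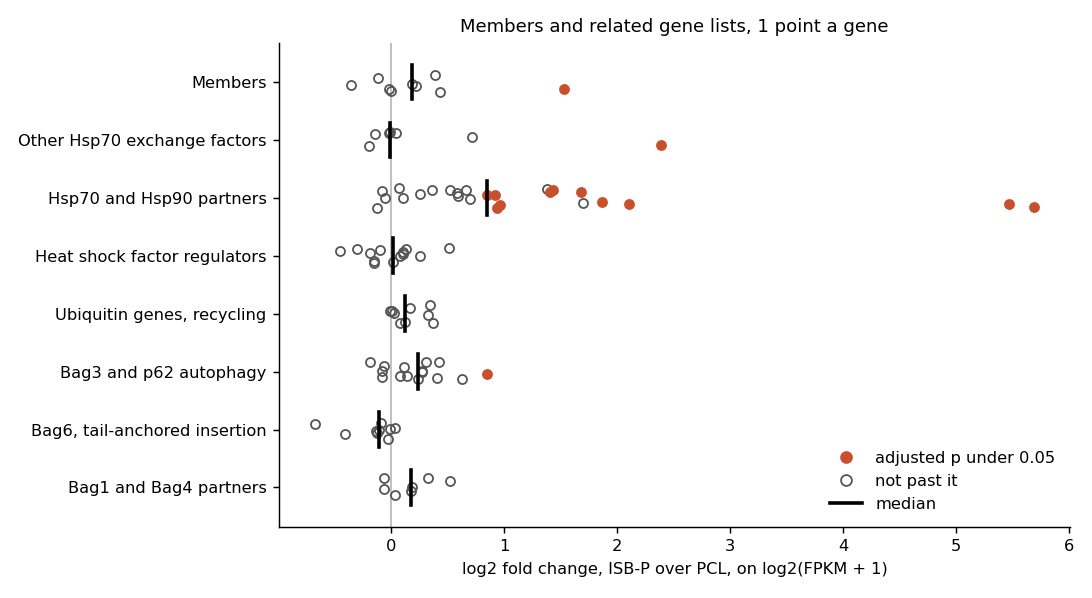
Log2 fold change of ISB-P over PCL on log2(FPKM + 1) (horizontal axis) for the members and 7 lists of related genes, 1 point a gene, filled where the adjusted p in limma without the replicate block is under 0.05, with a bar at each median. The Hsp70 and Hsp90 list stands highest (median 0.85), while the members (0.18) and the other lists have medians between -0.11 and 0.24.

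Across the 7 libraries, the levels of Bag3 and Ubb on the log2(FPKM + 1) scale were correlated at r = 0.82, the same as Bag5 with Hsf2, while Bag5 with Bag6 were at -0.81 and Bag3 with Hsf1 at 0.18. Likeness was sought among 4999 genes that averaged 16 FPKM or more on at least 1 film. The 5 most like Bag3 were Kat5, Hspb1, Cryab, Hspa1a and Banp, with r from 0.991 to 0.986. Their log2 fold changes between the films were 0.28 to 5.47, and r contains this difference. Of these 5 genes, Hspb1, Cryab and Hspa1a are chaperone genes. The 5 most like Ubb were Pprc1, Ier5, Mfn2, Zfand3 and Ndufa8, with r from 0.977 to 0.966, and their log2 fold changes between the films were 0.12 to 0.60. With 7 libraries that share surfaces and replicate numbers, 35 genes had an r over 0.9 with Bag3 and 46 with Ubb, and the coefficients describe these libraries only.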

How the data were processed

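The authors prepared stranded mRNA libraries, and the submitters' processing notes name bcl2fastq 2.20.0.422, cutadapt 1.18, TopHat2 2.0.13, Cuffdiff 2.2.1 and the rn5 genome. The paper names ExDEGA for the analysis. The annotation and the handling of shared reads are not given in the sources used here. The authors deposited 1 value for each of 17147 symbols and library, read here as FPKM because Cuffdiff is named, the values are not whole and their sums differ (539393 to 660124). They were used as deposited. Read depth is unknown, so no counting error or floor is given.

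A gene was tested if 3 or more of the 6 film libraries held 1 FPKM or more, which kept 9467. For ISB-P against PCL, limma 3.58.1 (R 4.3.3; lmFit, eBayes with trend) was fitted to log2(FPKM + 1). Its two-sided p-values were adjusted by Benjamini-Hochberg over all tested genes. This fit had been tested on simulated data with independent noise in each library. The simulation held no effect shared by replicate number, so it cannot tell how the fit behaves where there is one. An exact permutation test over libraries was added for single members (scipy 1.17.1). TCP, with 1 library, was compared by ratio. Replicate numbers came from the sample labels, which do not say that libraries of the same number were paired. Deviations from the film mean correlated across genes between same-numbered PCL and ISB-P libraries at r = 0.887, 0.431 and 0.867. Between libraries of unlike number r was -0.836 to 0.177, where values below 0 arise in part because deviations from a film mean sum to 0. The fit with the number as a block is therefore given beside each result whose call it changes.

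The members and lists were chosen with earlier results of these data known. Each list's named genes are at most 4, the largest changes among those averaging 16 FPKM or more on at least 1 film, and genes named for likeness are the 5 highest correlations. Some genes of the lists are counted but not reported by name here. Hspa8 and Chordc1, named for their promoters, and Hsf2bp, Wrb, Sgtb and Siah1a, named to complete small counts, fall outside this rule. So does Hspbp1, named beside the exchange factors of other compartments. All of these were chosen after their values were seen. Alternatives were other scalings, filters, a pseudocount of 0.1, the replicate block, TCP in the fit, eBayes without a trend and each library left out. Promoters came from RefSeq, GRCr8. Plots used matplotlib 3.10.9 (Python 3.11.15).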

Additional observations from a re-analysis of the deposited data

How the results depend on the processing

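Of the members, 1 was higher and 0 lower on ISB-P without the replicate block. The number higher was 0 with quantile normalization, ranged from 0 to 1 with a library left out, and was 3 with the replicate block, also with a common total or quantile normalization added. The number lower was 1 with the block, 2 with the block and a common total, 1 with the block and quantile normalization, and 0 in the other settings. The block called 13.0% of tested genes higher and 11.4% lower, or 7.54% and 22.3% with a common total added. That share is not given for the block with quantile normalization. For Bag1 the log2 fold change turned to -0.016 with upper quartile scaling, to -0.082 with quantile normalization and to -0.109 with a common total, the last 2 values being the same when the block was added. The number higher was 0 without PCL replicate 1, 2 or 3 or ISB-P replicate 2. With a library left out the log2 fold change ranged from -0.174 to 0.126 for Bag1, from -0.235 to 0.052 for Bag6, from -0.080 to 0.088 for Hsf1 and from -0.194 to 0.545 for Hsf2, none of them past the threshold. The members without overlap between the films were 4 with upper quartile scaling or quantile normalization, 3 with a common total, and 2 to 4 with a library left out. Those past 2-fold between PCL and TCP were 0 with upper quartile scaling, and 0 to 1 with a library left out. For neither count is the share of all tested genes given in these settings, so nothing is read from these counts. The cause of these changes was not tested, except that leaving out a library also leaves fewer samples. The combinations of block and scaling, and the settings for overlap, were chosen after seeing the data. Bag2, Bag3, Bag4, Bag5 and Ubb kept their direction in every setting run.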
